A study of Gallus gallus with 6 samples.

Results

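The respiratory chain and the ATP synthase are the machinery of oxidative phosphorylation in the inner mitochondrial membrane. In the deposited chicken table, 82 of 23724 genes belong to this machinery by their symbols, which begin with NDUF, UQCR, COX4 to COX8 or ATP5 or are SDHA, SDHB, SDHC or SDHD. They comprise 34 subunit genes of complex I, 8 assembly factors of complex I (the NDUFAF genes), 4 subunits of complex II, 8 of complex III, 10 of complex IV with NDUFA4 counted there, 16 subunits of the ATP synthase, and ATP5S and ATP5SL, whose names follow the synthase although they are not subunits of it. The rule uses symbols alone, but it was set with earlier results of these data known.

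Complexes I and II pass electrons from NADH and succinate to ubiquinone, complex III passes them on to cytochrome c, and complex IV hands them to oxygen. Complexes I, III and IV pump protons on the way, and the ATP synthase lets the protons back through a ring of c subunits, which drives ATP production in its catalytic head. Most subunits are encoded in the nucleus. The genome of the mitochondrion encodes the rest, and these were not analysed here.

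Papilla ectoderm, the epidermal layer that wraps the dermal papilla at the base of a feather follicle, was taken from contour feathers of untreated White Leghorn chickens, adult males according to the methods. The early growth phase (week 3 of regeneration), the late growth phase (week 7) and the resting phase (week 10) were profiled by bulk RNA-seq, with 2 libraries for each phase and 6 in all. The layer was peeled off the dissected dermal papilla after EDTA treatment, so neighbouring cells can remain on it. Nothing in the labels or methods says that the libraries of a phase came from separate birds or pools, so the spread between them may be technical. All libraries carry the same batch label.

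Levels are given as TPM, each transcript's share of its library after correction for length and scaling to a common total, and the read depth behind them is unknown. Differences are log2 fold changes of TPM + 1, later phase over earlier phase. All 13063 genes with a mean above 1 TPM were fitted together in limma, and a gene was said to rise or fall at a Benjamini-Hochberg adjusted p under 0.05 over these genes. Every one of the 82 genes was tested. An exact permutation test of 2 libraries against 2 has 0.333 as its smallest two-sided p, so each call rests on the spread that limma shares among genes. Calls were also made in 18 alternative fits, among them 6 that leave out a library and 4 that rescale the libraries. A call that held in all of them is said to stand throughout. Calls described as lost without a library could also be lost in other fits, which are not named for every gene.

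The makeup of the libraries differs between the phases. Across 14 smooth muscle markers, the summed share of TPM was 0.421% and 0.344% in the early growth libraries, 0.120% and 0.133% in the late growth libraries, and 5.37% and 5.51% in the resting libraries. Red blood cell genes took at most 0.1496% of TPM in any growth library but 5.58% and 5.61% in the resting libraries. The 15 fibroblast and dermal papilla markers took 0.203% and 0.204% in the early growth libraries, 0.0286% and 0.0302% in the late growth libraries, and 0.347% and 0.345% in the resting libraries. The 11 keratinocyte markers in the table took 1.202% and 1.304% in the early growth libraries, 0.956% and 0.983% in the late growth libraries, and 0.950% and 0.960% in the resting libraries. The epidermal keratins KRT5 and KRT14 were high in all 6 libraries, with lowest values of 2959 TPM for KRT5 and 2290 TPM for KRT14. Both fell in late growth against early growth (−0.34 and −0.51), calls lost under median-of-ratios scaling, and in resting against late growth (−0.43 and −0.39). Of the 11 keratinocyte markers, 6 fell and 2 rose in the first comparison, where 28.4% of all tested genes fell and 5.24% rose. In the second 7 fell and 2 rose, where 23.1% fell and 24.7% rose. In bulk samples, fewer cells of a type and less RNA per cell cannot be told apart.

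The genes of the respiratory chain and the ATP synthase were abundant in every phase. Of the 82 genes, 65 lay in the top 10% of tested genes by mean TPM, although 0 were among the top 100. By median over the genes of a complex, complex IV (471 TPM) and the ATP synthase (469 TPM) stood highest, followed by complex III (336 TPM), complex II (194 TPM), complex I (142 TPM) and the NDUFAF assembly factors (43.9 TPM). The highest mean belonged to COX7C, a small subunit of complex IV, at 868 TPM. The lowest was that of NDUFAF4, an assembly factor, at 11.3 TPM.

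The summed TPM of the 82 genes, as deposited, was lower in each later phase. It was 25880 and 27010 TPM in early growth, 23000 and 21160 TPM in late growth, and 16830 and 16980 TPM in resting. No library of a later phase reached any library of an earlier phase. As a share of TPM counted without muscle and red cell genes, the sum was 2.61% and 2.72% in the early growth libraries, 2.31% and 2.12% in the late growth libraries, and 1.93% and 1.95% in the resting libraries. The order of the phases was the same by this share. Late growth and resting then overlapped for complex I (0.633% and 0.577% against 0.589% and 0.569%) and complex IV (0.460% and 0.419% against 0.4245% and 0.431%). Under median-of-ratios scaling, which sets the typical gene equal between libraries, the median log2 fold change of the 82 genes for late over early growth was 0.13. The first step therefore depended on the scaling.

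**Figure D1:**
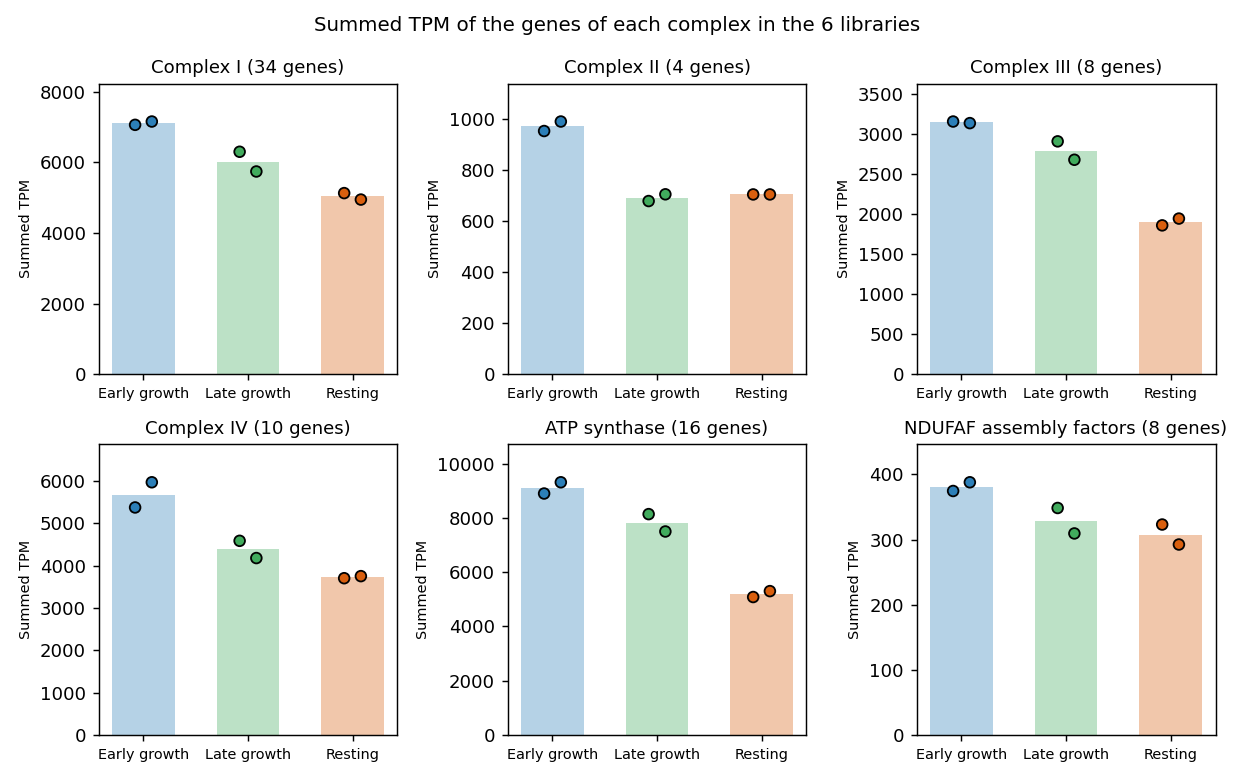
Summed TPM of the genes of each complex (vertical axis, from 0) in early growth, late growth and resting; points are libraries and bars the mean of 2 libraries. In proportion to their late growth level, the ATP synthase (0.664 times) and complex III (0.681 times) are lowest in resting, and complex II has its drop between early and late growth.

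At the step from late growth to resting more of these genes passed the test than at the step before, and the share that passed was uneven between the complexes. Of the 82 genes, 41 fell and 5 rose in resting against late growth, where 23.1% of all tested genes fell and 24.7% rose. The median log2 fold change was −0.34 over the 82 genes and 0.02 over all tested genes. In the ATP synthase 14 of 16 subunit genes fell, in complex III 5 of 8, in complex IV 5 of 10 and in complex I 15 of 34. The median was −0.58 in the ATP synthase, −0.55 in complex III, −0.29 in complex IV and −0.26 in complex I. In complex II 0 of 4 genes fell in limma, while SDHB was lower at an unadjusted p under 0.05 (1 of 4), and its median was 0.07. The NDUFAF factors had a median of 0.21, with 1 fall and 2 rises.

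Leaving out a library of late growth or resting lowered these counts, and it lowered those over all tested genes as well. The median of the 82 genes was −0.29 without late growth replicate 1 and −0.39 without late growth replicate 2. It was −0.34 without resting replicate 1 and −0.31 without resting replicate 2. Over all tested genes the median was 0, 0.05, 0.03 and 0.01 in that order. Of the 41 falls 19 stood throughout, and of the 5 rises 1 did. By complex, the falls that stood throughout were 8 of 14 in the ATP synthase and 4 of 5 in complex III. They were 3 of 5 in complex IV and 3 of 15 in complex I. After rescaling TPM without muscle and red cell genes, which raised the median of all tested genes to 0.19, 27 of the 82 genes fell and 9 rose at a median of −0.15, while 17.8% of tested genes fell and 29.9% rose. The distance of the genes' median from that of all tested genes was −0.36 as deposited, −0.34 after the rescaling and −0.09 under quantile normalization. Under quantile normalization 32 of the 82 genes fell and 7 rose, while 27.4% of all tested genes fell and 22.4% rose. Of 11 keratinocyte markers, 7 fell and 2 rose at this step, with a median of −0.43. The 2 rises, of KRT15 (3.25) and COL17A1 (2.13), were the largest changes of the list. The summed keratinocyte share was nearly level, at 0.956% and 0.983% in late growth and 0.950% and 0.960% in resting. All 14 smooth muscle markers rose. The part of either list in the change of the 82 genes was not tested.

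**Figure D2:**
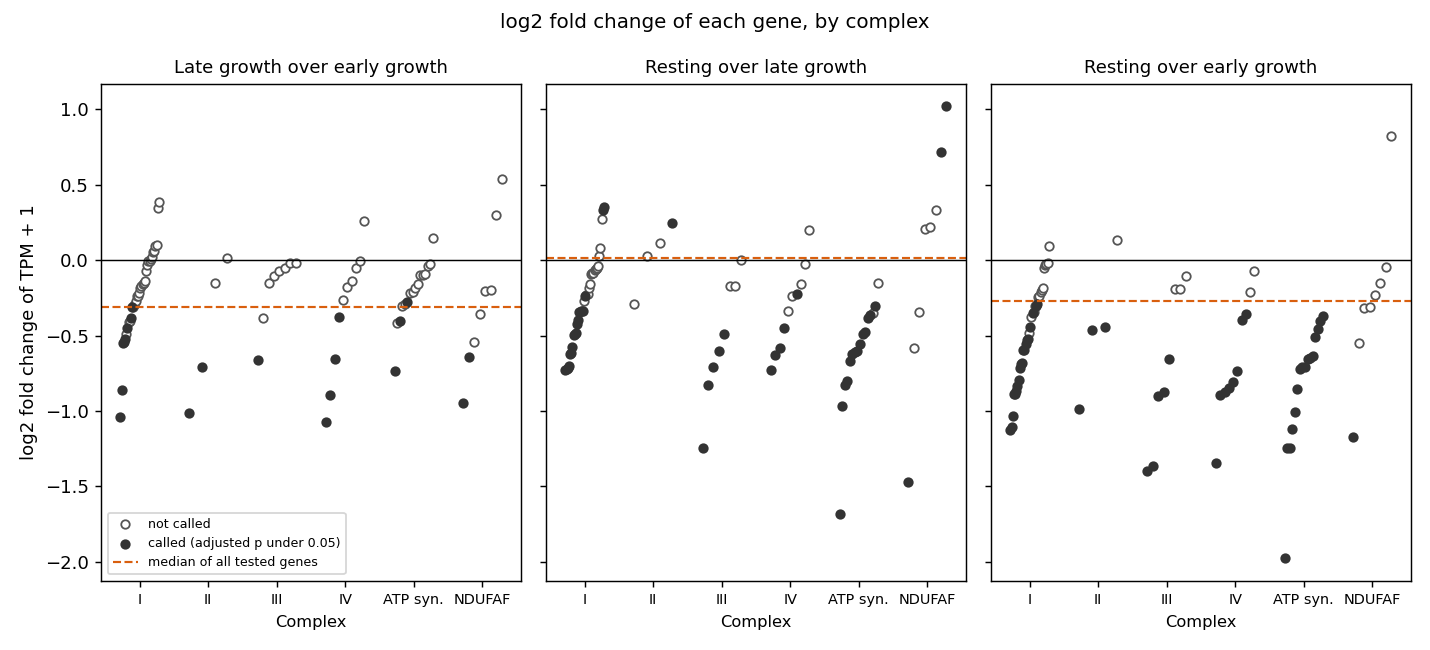
Log2 fold change of TPM + 1 of each gene (vertical axis) by complex, for late over early growth, resting over late growth and resting over early growth; filled points passed an adjusted p under 0.05 in limma and the dashed line is the median of all tested genes. In the middle panel all 16 ATP synthase genes lie below the dashed line, and the 2 highest points are the assembly factors NDUFAF8 and NDUFAF3.

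Among the ATP synthase genes, the c subunit gene ATP5G3 and the alpha subunit gene ATP5A1Z had the largest log2 fold changes at this step. The ring of c subunits carries protons through the membrane, and in mammals ATP5G1, ATP5G2 and ATP5G3 encode the same mature protein behind different import sequences. ATP5G3 lay at 771 and 780 TPM in early growth, 693 and 579 TPM in late growth, and 189 and 204 TPM in resting. Its resting libraries stood far below the 4 growth libraries, and the log2 fold change of resting over late growth was −1.68 (SE 0.10, adjusted p = 6.6e-05). ATP5G1 lay at 571 and 621 TPM in early growth, 603 and 557 TPM in late growth, and 348 and 413 TPM in resting. The growth phases overlapped for ATP5G1, and resting was lower than late growth by a smaller step, −0.61 (SE 0.10, adjusted p = 0.0037). ATP5G2 lay at 252 and 384 TPM in early growth, 277 and 260 TPM in late growth, and 146 and 162 TPM in resting. Its log2 fold change was −0.80 (SE 0.19, adjusted p = 0.016), and that call was lost without any single library of late growth or resting (adjusted p 0.079 to 0.12).

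The makeup of the c subunit transcripts therefore differed between resting and growth. ATP5G3 made up 48.4% and 43.7% of the summed TPM of the 3 genes in the early growth libraries, 44.1% and 41.5% in the late growth libraries, and 27.7% and 26.2% in the resting libraries. ATP5G1 made up 35.8% and 34.8% in the early growth libraries, 38.3% and 39.9% in the late growth libraries, and 50.9% and 53.0% in the resting libraries. ATP5G3 was thus the leading c subunit gene in all 4 growth libraries and ATP5G1 in both resting libraries. These shares are ratios within a library, which multiplying all values of a library by a constant does not change. The 3 genes are related in sequence, and the sources used here do not say how reads shared by them were assigned, so the split is uncertain.

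**Figure D3:**
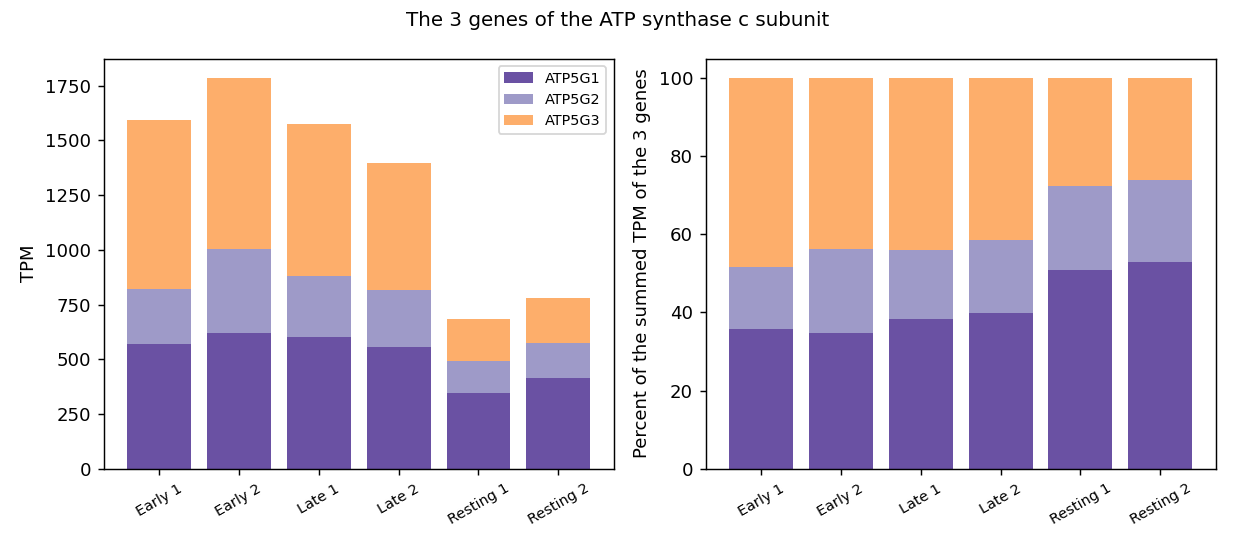
TPM of ATP5G1, ATP5G2 and ATP5G3 stacked in each library (left, from 0) and their percent of the summed TPM of the 3 genes (right). The sum is 1594 and 1785 TPM in early growth, 1573 and 1396 TPM in late growth and 683 and 779 TPM in resting, and the ATP5G3 share is smallest in the resting libraries.

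The catalytic head of the enzyme is built from alpha and beta subunits around a central stalk. ATP5A1Z, an alpha subunit gene, lay at 1063 and 1003 TPM in early growth, 833 and 867 TPM in late growth, and 435 and 433 TPM in resting. The phases did not overlap, and resting over late growth was −0.97 (SE 0.06, adjusted p = 6.8e-05). The other alpha gene listed, ATP5A1W, was far lower, at 34.7 and 24.8 TPM in early growth, 20.8 and 22.6 TPM in late growth, and 12.1 and 11.4 TPM in resting. It made up between 2.41% and 3.16% of the alpha transcripts in every library, with no ordering of the phases. W and Z name the sex chromosomes of birds, and males have no W chromosome. The values listed under ATP5A1W can therefore not be read as transcripts of a W copy and are no evidence apart from ATP5A1Z. Without ATP5A1W, 13 of 15 synthase genes fell in resting against late growth, where 23.1% of all tested genes fell.

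ATP5F1B, the catalytic beta subunit, followed another course than the alpha gene. It lay at 1011 and 1045 TPM in early growth, 634 and 600 TPM in late growth, and 438 and 508 TPM in resting. Its larger step came first, with −0.74 for late over early growth (SE 0.08, adjusted p = 0.0021) and −0.39 for resting over late growth (SE 0.08, adjusted p = 0.011). The second call was lost without late growth replicate 1 or resting replicate 1. It was also lost under quantile normalization and after rescaling TPM without muscle and red cell genes or without all markers of other cell types. The first call stood throughout. The beta gene stood at 0.951 and 1.04 times the alpha gene ATP5A1Z in early growth, 0.762 and 0.693 times in late growth, and 1.01 and 1.17 times in resting. The ratio was lowest in late growth, where its libraries overlapped with neither other phase.

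Other parts of the ATP synthase were also lower in resting than in late growth. ATP5L, the g subunit of the membrane part, lay at 374 and 373 TPM in resting against 644 and 548 TPM in late growth (−0.67, SE 0.10, adjusted p = 0.0024). ATP5F1, the b subunit of the outer stalk, lay at 346 and 352 TPM in resting against 556 and 522 TPM in late growth (−0.62, SE 0.06, adjusted p = 4.7e-04). ATP5O, the stalk subunit also called OSCP, lay at 371 and 365 TPM in resting against 549 and 532 TPM in late growth (−0.55, SE 0.06, adjusted p = 7.8e-04). In these 3 genes both resting libraries lay below both late growth libraries. ATP5D, the delta subunit of the central stalk, moved less, with 166 and 167 TPM in resting against 220 and 193 TPM in late growth (−0.30, SE 0.08, adjusted p = 0.027), and its call was lost without late growth replicate 1, resting replicate 1 or resting replicate 2 (adjusted p 0.11 to 0.12). ATP5H, the d subunit, and ATP5I, the e subunit, did not pass the test, with −0.35 (adjusted p = 0.056) and −0.15 (adjusted p = 0.25). ATP5I was nevertheless among the most abundant synthase genes, at 915 and 795 TPM in early growth, 791 and 681 TPM in late growth, and 667 and 652 TPM in resting.

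**Figure D4:**
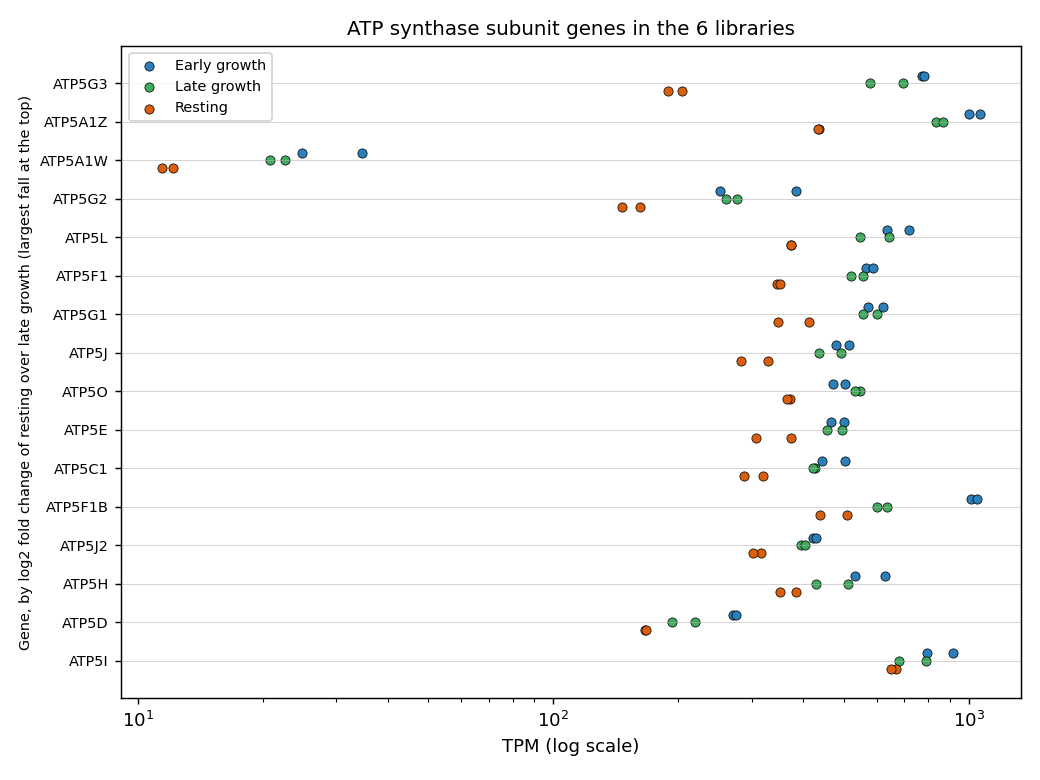
TPM (horizontal, log scale) of the 16 ATP synthase subunit genes in the 6 libraries, with early growth on top, late growth in the middle and resting at the bottom of each row and the largest fall in the top row. In every row both resting libraries lie left of both late growth libraries, with the widest gap for ATP5G3. Of all tested genes, 38.7% had both resting libraries below both late growth libraries.

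Against early growth, all 16 synthase genes fell in resting, with log2 fold changes between −1.98 for ATP5G3 and −0.37 for ATP5I. Of all tested genes, 34.0% fell in this comparison. The ATP5I call was lost without early growth replicate 1 or either resting library (adjusted p 0.090 to 0.13). For 7 of the 16 (ATP5A1W, ATP5A1Z, ATP5D, ATP5F1, ATP5F1B, ATP5G3 and ATP5L) the call stood throughout. With median-of-ratios scaling, which sets the typical gene equal between libraries, the call was kept by these 7 alone. Under that scaling 22.5% of all tested genes fell. Without ATP5A1W, which is no evidence apart from ATP5A1Z, 15 of 15 synthase genes fell in resting against early growth and 6 stood throughout. ATP5S, which encodes coupling factor B, a partner of the synthase, lay at 24.2 and 19.9 TPM in early growth, 19.2 and 19.4 TPM in late growth, and 10.3 and 6.94 TPM in resting. It fell by 1.28 on the log2 scale in resting against early growth (SE 0.23, adjusted p = 0.0051), and its libraries in resting lay below all others. ATP5SL, which in humans encodes a factor for the assembly of complex I, did not pass the test at any step. ATPIF1, which encodes the inhibitor that blocks the synthase when it runs backward and lies outside the symbols chosen, lay at 432 and 408 TPM in early growth, 362 and 271 TPM in late growth, and 323 and 309 TPM in resting. Its difference was 0.01 for resting over late growth (adjusted p = 0.95).

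In complex III the fall in resting against late growth comprised 5 of the 8 genes, where 23.1% of all tested genes fell. UQCR10, a small subunit, had the largest change of the complex. It lay at 760 and 677 TPM in early growth, 700 and 595 TPM in late growth, and 293 and 252 TPM in resting, so that the growth phases overlapped and resting stood apart. Resting over late growth was −1.24 (SE 0.12, adjusted p = 3.9e-04). UQCRFS1, the Rieske iron-sulfur protein that takes electrons from ubiquinol, lay at 315 and 344 TPM in early growth, 332 and 295 TPM in late growth, and 171 and 181 TPM in resting (resting over late growth −0.83, SE 0.09, adjusted p = 6.5e-04). UQCRH, the hinge protein beside cytochrome c1, lay at 283 and 351 TPM in resting against 493 and 465 TPM in late growth (−0.60, SE 0.11, adjusted p = 0.0053).

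UQCRC1, a core protein of complex III, fell at both steps. It lay at 375 and 381 TPM in early growth, 230 and 248 TPM in late growth, and 144 and 149 TPM in resting. The phases were well separated, with −0.66 for late over early growth (SE 0.07, adjusted p = 0.0017) and −0.71 for resting over late growth (SE 0.07, adjusted p = 4.8e-04). Both calls stood throughout, and none of the other 81 genes fell throughout at both steps. The other core protein gene, UQCRC2, fell in resting against early growth (−0.87, SE 0.12, adjusted p = 0.0017), a call that stood throughout. Its fall in resting against late growth (−0.49, SE 0.12, adjusted p = 0.016) was lost without late growth replicate 2 or either resting library. That call was also lost under quantile normalization and after rescaling TPM without muscle and red cell genes or without all markers of other cell types. The remaining genes UQCR11, UQCRB and UQCRQ did not pass at any step, with log2 fold changes of −0.17, −0.17 and 0.00 for resting over late growth. UQCRQ lay at 380 and 406 TPM in resting against 421 and 366 TPM in late growth, libraries that overlapped.

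In complex IV 4 genes fell in late growth against early growth (COX5A, COX6A1, COX6C and COX8A) and 5 in resting against late growth (COX4I1, COX7A2, COX7B, COX8A and NDUFA4). Of all tested genes, 28.4% fell at the earlier step and 23.1% at the later step. COX6A1, a regulatory subunit in the form found outside muscle and heart in mammals, was the most abundant complex IV gene in early growth. It lay at 970 and 1135 TPM in early growth, 528 and 470 TPM in late growth, and 572 and 573 TPM in resting. Late over early growth was −1.07 (SE 0.09, adjusted p = 9.6e-04), and resting over late growth was 0.20 (SE 0.09, adjusted p = 0.13). Set against COX4I1, a subunit of the same complex, COX6A1 stood at 1.27 and 1.43 times in early growth, 0.748 and 0.659 times in late growth, and 0.981 and 0.902 times in resting.

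COX7B, COX7A2 and NDUFA4, small subunits of complex IV, passed only at the later step. COX7B lay at 423 and 424 TPM in resting against 661 and 609 TPM in late growth (−0.58, SE 0.08, adjusted p = 0.0023). COX7A2 lay at 120 and 115 TPM in resting against 202 and 189 TPM in late growth (−0.73, SE 0.10, adjusted p = 0.0015). NDUFA4, first taken for a complex I subunit and now placed in complex IV, lay at 248 and 215 TPM in resting against 368 and 348 TPM in late growth (−0.63, SE 0.09, adjusted p = 0.0018). In each of them both resting libraries lay below all 4 growth libraries. COX8A fell in late growth, with 166 and 136 TPM against 283 and 276 TPM in early growth (−0.89, SE 0.13, adjusted p = 0.0053). COX8A lay at 121 and 99.3 TPM in resting (−0.45 against late growth, adjusted p = 0.035). That call was lost without either early growth library, late growth replicate 1 or resting replicate 2, and in all 4 fits that rescale the libraries.

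The remaining complex IV genes moved less. COX7C, the most abundant of the 82 genes, lay at 844 and 998 TPM in early growth, 960 and 818 TPM in late growth, and 748 and 842 TPM in resting. Late growth overlapped with both other phases, and COX7C did not pass at any step. COX4I1 lay at 584 and 635 TPM in resting against 706 and 714 TPM in late growth (−0.22, SE 0.06, adjusted p = 0.028). The call was lost without either late growth library or resting replicate 1, and in all 4 fits that rescale the libraries. COX7A2L, which in mice and humans joins complexes III and IV into supercomplexes, lay at 89.5 and 70.5 TPM in early growth, 94.9 and 95.7 TPM in late growth, and 82.2 and 69.1 TPM in resting, and did not pass. COX5A, which fell in late growth against early growth by 0.66 on the log2 scale (SE 0.13, adjusted p = 0.014), lost that call without either late growth library and under median-of-ratios scaling.

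Complex II, the succinate dehydrogenase that is also a step of the citric acid cycle, had nearly the same summed TPM in resting and late growth and a higher one in early growth. The sum was 952 and 989 TPM in early growth, 678 and 704 TPM in late growth, and 704 and 704 TPM in resting. As a share of TPM counted without muscle and red cell genes, resting (0.0807% and 0.0809%) lay above late growth (0.0680% and 0.0707%). Early growth was again highest by that share (0.0960% and 0.0998%). SDHC, a membrane anchor, lay at 316 and 397 TPM in early growth, 155 and 198 TPM in late growth, and 182 and 174 TPM in resting. Its late growth libraries lay well below the early growth libraries (−1.01, SE 0.15, adjusted p = 0.0052) and overlapped with resting. SDHD, the other anchor, did not pass at any step, at 217 and 204 TPM in early growth, 221 and 204 TPM in late growth, and 245 and 217 TPM in resting. SDHC thus stood at 1.46 and 1.95 times SDHD in early growth, 0.700 and 0.968 times in late growth, and 0.741 and 0.804 times in resting.

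The catalytic pair of complex II also split. SDHA, the flavoprotein that oxidizes succinate, lay at 212 and 208 TPM in early growth, 130 and 127 TPM in late growth, and 146 and 159 TPM in resting. It fell in late growth against early growth (−0.71, SE 0.08, adjusted p = 0.0019), and resting over late growth was 0.25 (SE 0.08, adjusted p = 0.041). The second call was lost without any single library of late growth or resting, under median-of-ratios scaling and with the replicate number as a block. SDHB, the iron-sulfur subunit, lay at 206 and 180 TPM in early growth, 172 and 176 TPM in late growth, and 131 and 153 TPM in resting. Its only call was in resting against early growth (−0.44, SE 0.11, adjusted p = 0.017), lost without early growth replicate 1 or resting replicate 1 (adjusted p 0.061 and 0.096). SDHA stood at 1.03 and 1.16 times SDHB in early growth, 0.753 and 0.722 times in late growth, and 1.11 and 1.04 times in resting, lowest in late growth.

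In complex I falls outnumbered rises in resting against late growth, where 23.1% of all tested genes fell and 24.7% rose. Of the 34 complex I subunit genes, 15 fell (44.1%), 2 rose (5.88%) and 17 did not pass, with log2 fold changes from −0.73 to 0.35. Of the falls, 3 stood throughout, those of NDUFA11, NDUFAB1 and NDUFV2. NDUFA11, a subunit of the membrane arm, lay at 303 and 286 TPM in early growth, 330 and 261 TPM in late growth, and 181 and 176 TPM in resting (resting over late growth −0.71, SE 0.12, adjusted p = 0.0038). Its growth phases overlapped, and resting stood below them. NDUFAB1, which doubles as the acyl carrier protein of mitochondrial fatty acid synthesis, lay at 199 and 173 TPM in early growth, 133 and 138 TPM in late growth, and 84.7 and 96.4 TPM in resting (resting over late growth −0.58, SE 0.11, adjusted p = 0.0058). NDUFV2, an iron-sulfur subunit of the NADH-binding module, lay at 126 and 142 TPM in resting against 189 and 188 TPM in late growth (−0.49, SE 0.09, adjusted p = 0.0052), and was chosen after its values were seen.

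The partner of NDUFV2 in the same module went the other way. NDUFV1, the flavoprotein that takes electrons from NADH, lay at 225 and 215 TPM in early growth, 169 and 167 TPM in late growth, and 216 and 214 TPM in resting. Both late growth libraries were below all others. Resting over late growth was 0.35 (SE 0.07, adjusted p = 0.0067), the only rise among the 82 genes that stood throughout. Late over early growth was −0.38 (SE 0.07, adjusted p = 0.0086), lost without either late growth library and under median-of-ratios scaling or quantile normalization. NDUFB7, a membrane arm subunit, lay at 203 and 204 TPM in resting against 171 and 151 TPM in late growth (0.34, SE 0.09, adjusted p = 0.029). That call was lost without late growth replicate 2 or either resting library (adjusted p 0.12 to 0.15).

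NDUFA13 and NDUFC2 fell in late growth and did not pass the test after it. NDUFA13, known also as GRIM-19, lay at 405 and 431 TPM in early growth, 223 and 183 TPM in late growth, and 181 and 200 TPM in resting. Late over early growth was −1.04 (SE 0.11, adjusted p = 0.0019), and the late growth and resting libraries overlapped. NDUFC2 lay at 155 and 146 TPM in early growth, 88.9 and 76.1 TPM in late growth, and 82.5 and 85.4 TPM in resting, with −0.86 for late over early growth (SE 0.10, adjusted p = 0.0026). Both calls stood throughout. Of NDUFB10 and NDUFB5, the most abundant complex I subunits, NDUFB10 did not pass at any step. NDUFB5 lay at 267 and 241 TPM in resting against 336 and 306 TPM in late growth (−0.34, SE 0.08, adjusted p = 0.018). That call was lost without late growth replicate 1 or resting replicate 2. Resting over early growth was −0.52 for NDUFB5 (adjusted p = 0.0033), lost under median-of-ratios scaling and quantile normalization.

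NDUFA7 and NDUFA5, in the arm that projects into the matrix, had their highest libraries in late growth. NDUFA7 lay at 138 and 98.6 TPM in early growth, 157 and 147 TPM in late growth, and 84.0 and 99.7 TPM in resting. NDUFA5 lay at 120 and 91.0 TPM in early growth, 133 and 133 TPM in late growth, and 70.2 and 91.3 TPM in resting. For both, resting and early growth overlapped. Resting over late growth was −0.73 for NDUFA7 (SE 0.17, adjusted p = 0.016) and −0.72 for NDUFA5 (SE 0.17, adjusted p = 0.016), calls lost without either late growth library or resting replicate 1, and for NDUFA7 also without resting replicate 2 (adjusted p 0.056 to 0.12). NDUFB4, a membrane arm subunit, lay at 403 and 398 TPM in early growth, 326 and 280 TPM in late growth, and 211 and 164 TPM in resting. Its fall against late growth (−0.70, SE 0.13, adjusted p = 0.0070) was lost without late growth replicate 1 (adjusted p = 0.058), and that against early growth (−1.10, SE 0.13, adjusted p = 0.0012) stood throughout. NDUFB8 was lower at each step, at 286 and 318 TPM in early growth, 210 and 200 TPM in late growth, and 171 and 154 TPM in resting, and its fall in resting against early growth (−0.89, SE 0.09, adjusted p = 5.8e-04) stood throughout.

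**Figure D5:**
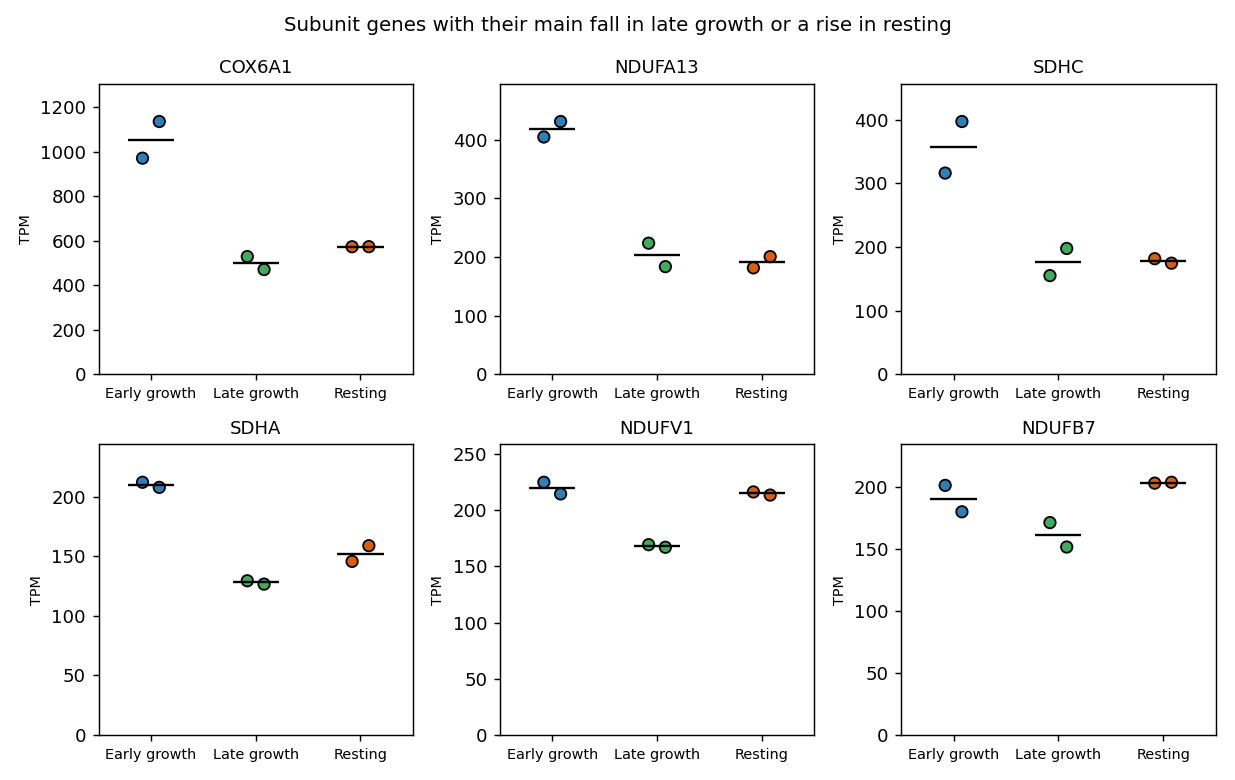
TPM (vertical, from 0) of 6 subunit genes, chosen after their values were seen, in the libraries of early growth, late growth and resting; lines are means of 2 libraries. COX6A1, NDUFA13 and SDHC drop between early and late growth and stay low, while SDHA, NDUFV1 and NDUFB7 are lowest in late growth.

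The NDUFAF genes encode proteins that help to build complex I and are not part of the finished enzyme. NDUFAF1, which works on an early membrane intermediate, lay at 106 and 92.1 TPM in early growth, 125 and 118 TPM in late growth, and 42.1 and 44.5 TPM in resting. Its resting libraries were below all growth libraries, and resting over late growth was −1.47 (SE 0.11, adjusted p = 1.4e-04), a call that stood throughout. It was the only NDUFAF gene to fall in resting, against either growth phase.

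Among the other NDUFAF genes, each rise or fall between neighbouring phases was lost when some libraries were left out. NDUFAF8, the partner of NDUFAF5, lay at 74.8 and 70.9 TPM in resting against 46.5 and 26.9 TPM in late growth (1.02, SE 0.33, adjusted p = 0.044). NDUFAF3 lay at 55.5 and 86.7 TPM in early growth, 37.0 and 34.1 TPM in late growth, and 64.8 and 53.9 TPM in resting, with 0.72 for resting over late growth (SE 0.22, adjusted p = 0.040) and −0.95 for late over early growth (SE 0.22, adjusted p = 0.022). Both rises were lost without late growth replicate 2 or either resting library, and the rise of NDUFAF3 also without late growth replicate 1 (adjusted p 0.11 to 0.22); its fall was lost without either late growth or either resting library (adjusted p 0.061 to 0.13). NDUFAF5, which hydroxylates NDUFS7, lay at 31.0 and 27.1 TPM in late growth against 46.5 and 45.0 TPM in early growth (−0.64, SE 0.14, adjusted p = 0.018). That call was lost without either late growth library and under median-of-ratios scaling or quantile normalization. NDUFAF2, NDUFAF4, NDUFAF6 and NDUFAF7 did not pass at any step, with log2 fold changes between −0.58 and 0.54.

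In late growth against early growth the share of the 82 genes that fell was near that of all tested genes. Of them, 20 fell (24.4%) and 0 rose in limma, where 28.4% of all tested genes fell and 5.24% rose. At an unadjusted p under 0.05, 30 were lower and 2 (NDUFAF1 and NDUFAF4) were higher. The share of all tested genes at that threshold is not given here, so these 2 counts have no baseline. The median log2 fold change of the 82 genes was −0.19, against −0.31 over all tested genes. Without late growth replicate 2 the median was −0.14, against −0.34 over all tested genes. Without late growth replicate 1 it was −0.26, against −0.28. In both fits fewer genes fell, among the 82 and among all tested genes. Under median-of-ratios scaling, which brought the median of all tested genes to −0.01, the genes' median was 0.13, with 8 falls and 10 rises, and 15.3% of tested genes fell while 12.8% rose. Under quantile normalization 12 fell and 6 rose at a median of −0.04, with 13.6% of tested genes lower and 12.3% higher. The direction of the whole group at this step therefore depended on the scaling.

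In 8 genes the fall in late growth against early growth stood throughout: ATP5F1B, COX6A1, COX8A, NDUFA13, NDUFC2, SDHA, SDHC and UQCRC1. All 5 complexes are represented among them. By the order of their libraries, 47 of the 82 genes had both late growth libraries below both early growth libraries and 7 above, against 52.0% and 14.9% of all tested genes.

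Between the ends of the series, resting against early growth, 54 of the 82 genes fell (65.9%) and 0 rose, where 34.0% of tested genes fell and 15.8% rose. At an unadjusted p under 0.05, 58 were lower and 1 (NDUFAF8) was higher, again with no share of all tested genes at that threshold. The median of the 82 genes was −0.54, against −0.27 over all tested genes. The falls comprised 20 of 34 genes in complex I, 3 of 4 in complex II, 5 of 8 in complex III, 8 of 10 in complex IV and 16 of 16 in the ATP synthase, with NDUFAF1 and ATP5S besides. Under median-of-ratios scaling 27 fell and 5 rose at a median of −0.20, while 22.5% of tested genes fell and 24.3% rose. Under quantile normalization 36 fell and 5 rose, with 3395 of the 13063 tested genes lower and 3026 higher. Rescaled without muscle and red cell genes, 45 fell and 2 rose, with 27.3% lower and 19.5% higher. These 3 comparisons share libraries, so the last is no separate evidence for the first pair.

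Joining the 2 steps, 8 genes fell at both (ATP5A1Z, ATP5D, ATP5F1B, COX8A, NDUFAB1, NDUFB8, NDUFS8 and UQCRC1), 9 only at the first, 33 only at the second, and 27 passed at neither. A further 3 (NDUFAF3, NDUFV1 and SDHA) fell and then rose, and 2 (NDUFAF8 and NDUFB7) rose at the second step alone. Passing at a single step does not show that the steps differ for a gene, which was not tested. In 30 of the 82 genes, both libraries of each phase lay below both libraries of the phase before. Of all tested genes, 52.0% lay below in this way at the first step and 38.7% at the second. The share below at both steps was not computed, so the 30 cannot be compared with it.

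Ratios between complexes within a library are not changed by multiplying the library by a constant, although quantile normalization can change them. The summed TPM of the ATP synthase was 1.26 and 1.302 times that of complex I in early growth, 1.29 and 1.31 times in late growth, and 0.991 and 1.07 times in resting. For complex III the ratio to complex I was 0.447 and 0.438 in the early growth libraries, 0.462 and 0.467 in the late growth libraries, and 0.362 and 0.393 in the resting libraries. In both cases the 2 resting libraries were below all 4 growth libraries, which lay close to each other. For complex IV the ratio was 0.760 and 0.833 in the early growth libraries, 0.727 and 0.727 in the late growth libraries, and 0.721 and 0.758 in the resting libraries, with resting overlapping late growth. For complex II it was 0.135 and 0.138 in the early growth libraries, 0.107 and 0.123 in the late growth libraries, and 0.137 and 0.142 in the resting libraries, lowest in late growth. A ratio shows unequal change and does not show which side moved.

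Genes that work with the chain were mixed. As a baseline for the counts below, 23.1% of all tested genes fell and 24.7% rose in resting against late growth. CYCS, cytochrome c itself, which shuttles electrons between complexes III and IV, lay at 69.4 and 71.3 TPM in resting against 135.8 and 129.4 TPM in late growth (−0.90, SE 0.09, adjusted p = 4.2e-04). CS, citrate synthase, at the entry of the citric acid cycle, lay at 165 and 197 TPM in early growth, 97.9 and 84.0 TPM in late growth, and 55.6 and 55.3 TPM in resting, and fell at both steps (−0.98 and −0.70). Of 20 citric acid cycle and pyruvate entry genes tested, 8 fell and 2 rose in resting against late growth (median −0.33), with falls of FH (81.3 and 77.9 TPM in resting against 155 and 165 TPM in late growth, adjusted p = 0.0016) and MDH2 (−0.87, adjusted p = 2.8e-04), fumarase and malate dehydrogenase, and rises of IDH2 (0.52, adjusted p = 0.0034) and OGDH (0.27). The rise of OGDH was lost without any single library of late growth or resting, while the other 3 calls stood throughout. Of 34 assembly factors other than the NDUFAF genes, 5 fell (TMEM70, COX20, COX11, ACAD9 and COX15) and 2 rose (TIMMDC1 and COX14) at that step, with a median of −0.05. Of these 7 calls, those of TMEM70 and ACAD9 stood throughout, and the others were each lost without at least 3 of the 4 libraries compared. TMEM70, which helps to assemble the ATP synthase, lay at 21.0 and 19.4 TPM in resting against 41.2 and 44.4 TPM in late growth (−1.05, SE 0.13, adjusted p = 0.0012). At the earlier step, 10 of the 34 fell, where 28.4% of all tested genes fell.

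The exchangers that carry ADP and ATP across the inner membrane did not move together. SLC25A4, which in mammals is the form of heart and skeletal muscle, lay at 133 and 149 TPM in resting against 8.54 and 10.5 TPM in late growth (3.76, SE 0.14, adjusted p = 1.6e-05). In early growth it lay at 30.8 and 33.0 TPM. SLC25A5 lay at 285 and 269 TPM in resting against 465 and 394 TPM in late growth (−0.63, SE 0.09, adjusted p = 0.0023). SLC25A6, the most abundant of them, had means of 2133 TPM in early growth, 1406 TPM in late growth and 1131 TPM in resting. The smooth muscle markers moved with SLC25A4, and so did the summed share of 11 striated muscle markers, 3 of which were tested. That share was 0.0365% and 0.0244% of TPM in the early growth libraries and 0.0033% in both late growth libraries. In the resting libraries it was 0.95% and 0.96%. Of the 3 tested, 2 rose in resting against late growth, ACTA1 (8.14) and MYBPC1 (4.06). The rest of the 11 had means of at most 1 TPM and were not tested, so this share comes from few genes. The part of either marker list in the rise of SLC25A4 was not tested. SLC25A3, the phosphate carrier, lay at 192 and 193 TPM in resting against 390 and 396 TPM in late growth (−1.03, SE 0.07, adjusted p = 1.3e-04).

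Of 10 regulators of mitochondrial gene expression tested, 5 fell in resting against late growth (GABPA, GABPB1, PPRC1, TFAM and TFB2M). Of all tested genes, 23.1% fell at this step. GABPB1, a partner of the ETS factor GABPA that acts on many respiratory genes in mammals, fell by 0.88 (SE 0.13, adjusted p = 0.0024) and the call stood throughout. GABPA (−0.58, adjusted p = 0.028), TFAM (−0.41, adjusted p = 0.021), which packages mitochondrial DNA, PPRC1 (−0.93, adjusted p = 0.013) and TFB2M (−0.72) lost their calls without at least 3 of the libraries compared. NRF1 and PPARGC1B did not pass at any step, and PPARGC1A, at means of 0, 0.149 and 0.375 TPM in early growth, late growth and resting, was too low to be tested. Among 17 glycolysis genes 12 fell in resting against late growth (median −0.50), and the summed TPM of the 82 genes was 2.13 and 2.17 times that of the glycolysis genes in early growth, 1.86 and 1.66 times in late growth, and 1.99 and 2.003 times in resting.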

How the data were processed

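Papilla ectoderm libraries, 2 for each of weeks 3, 7 and 10 of feather regeneration, were compared. According to the methods, the authors prepared TruSeq libraries, sequenced single short reads and computed TPM with StringTie on GRCg6a. The deposited TPM values were used unchanged, 1 column per library, with totals of 989472 to 998451 over 23724 genes and 11691 to 13334 genes above 1 TPM. The aligner and the read depth are not given in the sources used here, so precision comes from the spread between libraries alone. No sequences are shown because no sequence table was used here.

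The 82 genes were found by symbol, and 77 of the symbols and 3 synonyms match the RefSeq table of build GRCg7b, which was used for names only. Values were transformed to log2(TPM + 1), and 13063 genes with a mean above 1 TPM were fitted in limma 3.58.1 (R 4.3.3) as means of the 3 phases, with moderation that follows a variance trend (3.01 prior degrees of freedom). The fit was tested on simulated data. The genes, lists, tests and naming rule were chosen with earlier results of these data known. Named were the top 2 genes by mean TPM of each complex, up to 3 largest called rises and falls of each complex and comparison, all SDH and NDUFAF genes, complex IV isoforms and c subunit genes, ATPIF1, a set of partner genes (CYCS, CS, SLC25A4 to SLC25A6 and the regulators), the 2 largest called changes each way of the other lists, and genes counted in groups of 5 or fewer. ATP5F1, ATP5H, ATP5L, ATP5O, NDUFV2, MDH2, UQCRC2, UQCR11, UQCRB, UQCRQ, KRT5 and KRT14 were chosen after their values were seen, as were ratios between named genes. Alternatives were pseudocounts of 0.1 and 0.5, no filter, a filter at 5 TPM, quantile normalization, scaling by the median of ratios, rescaling of TPM without muscle and red cell genes, fits of the 2 phases compared, robust moderation, a replicate block, leaving out each library and stricter thresholds. Library weights and rescaling without all markers of other cell types were added after seeing the data. Figures were drawn with matplotlib 3.10.9.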

Additional observations from a re-analysis of the deposited data

How the results depend on the processing

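Directions and counts depended on how the libraries were scaled. For late growth against early growth, 0 genes rose and 20 fell, while median-of-ratios scaling gave 10 and 8 and quantile normalization 6 and 12, and the median of −0.19 became 0.13 and −0.035. There ATP5A1Z (0.051) and NDUFS7 (0.020) turned positive under median-of-ratios scaling, neither of them called, as did NDUFS7 in resting against early growth under quantile normalization (0.028). For resting against late growth, 5 rose and 41 fell. Here 3 rose with no filter, 3 with median-of-ratios scaling, 9 with TPM rescaled without muscle and red cell genes and 9 without all markers of other cell types. Of all tested genes, 19.3%, 25.7%, 29.9% and 29.9% rose in that order. The falls were 27 and 26 under these rescalings, where 17.8% and 17.6% of all tested genes fell. The median of −0.34 became −0.21 with quantile normalization, −0.15 and −0.14 with the rescalings. For resting against early growth, 0 rose and 54 fell, while 5 rose and 27 fell with median-of-ratios scaling, 5 rose with quantile normalization, 2 with the first rescaling and 3 with the second. Its median of −0.54 became −0.20, −0.25, −0.35 and −0.35 in that order. The distance of the genes' median from that of all tested genes was 0.12 for late against early growth (0.15 with median-of-ratios scaling, −0.07 with quantile normalization), −0.36 for resting against late growth (−0.36 and −0.09) and −0.27 for resting against early growth (−0.24 and −0.21). The cause of these shifts was not tested.

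Thresholds also moved the counts, and leaving out a library moved the medians of the 82 genes and of all tested genes. With a log2 fold change above 1 in size as well, 3 genes fell in late growth against early growth, 1 rose and 4 fell in resting against late growth, and 13 fell in resting against early growth. With an adjusted p under 0.01 and a log2 fold change above 2, as the methods name for counts, 0 genes rose or fell in limma in any comparison. The shares of all tested genes at these thresholds are not given here, so these counts have no baseline. When a library was left out, the rises numbered 0 to 3 and the falls 8 to 22 for late against early growth, with a median of −0.26 to −0.14. For resting against late growth the rises numbered 1 to 5 and the falls 24 to 45, with a median of −0.39 to −0.29. For resting against early growth the rises numbered 0 to 1 and the falls 45 to 54, with a median of −0.57 to −0.54. Over all tested genes the median ran from −0.42 to −0.22 for late against early growth in these fits. It ran from 0 to 0.05 for resting against late growth and from −0.37 to −0.18 for resting against early growth. The shares of all tested genes that rose or fell moved as well and are not given here, so these leave-out counts have no baseline. Over the 6 fits that leave out a library, some named genes lost their call. Leaving out a library of the phase not compared leaves the fold change as it was and alters only the shared spread. Such fits therefore say little about how stable a call is.

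Replicate numbers are not said to pair the libraries. Between libraries numbered 1, deviations from the phase mean correlated across genes at −0.0289, 0.0083 and 0.0149. Such correlations cannot show whether libraries of equal number share a bird or a preparation. With the replicate number as a block, 0 of the 82 genes rose and 22 fell in late growth against early growth, where 4.19% of all tested genes rose and 24.1% fell. In resting against late growth 3 rose and 40 fell, where 22.7% of all tested genes rose and 21.4% fell. Against early growth 1 rose and 54 fell in resting, where 14.4% of all tested genes rose and 31.6% fell. Of 111 named results that were called, 70 kept their call with median-of-ratios scaling, 83 with quantile normalization, 95 without muscle and red cell genes and 108 with the block. With 2 libraries a phase and unknown read depth, the counting error of low genes such as NDUFAF4 and ATP5S is not known.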

Other observations

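Values of 3 genes outside the symbols chosen, PGK1, VDAC1 and FOXRED1, are given here. Of 17 glycolysis genes 12 fell in resting against late growth, where 23.1% of all tested genes fell. Their median of −0.50 had the same direction as that of the respiratory chain and ATP synthase genes (−0.34). The glycolysis gene shown, PGK1, had the largest of these falls and does not stand for the list. PGK1, phosphoglycerate kinase, lay at 895 and 850 TPM in early growth, 979 and 1058 TPM in late growth, and 259 and 271 TPM in resting. Its resting libraries lay far below all growth libraries, and the log2 fold change of resting over late growth was −1.94, called by limma in every alternative fit. VDAC1, a channel of the outer mitochondrial membrane, lay at 19.2 and 20.1 TPM in early growth, 27.4 and 28.6 TPM in late growth, and 47.5 and 54.8 TPM in resting. It rose in resting against late growth by 0.84 on the log2 scale, also in every alternative fit, while SLC25A5 and SLC25A3 fell. FOXRED1, an assembly factor of complex I, lay at 41.1 and 37.2 TPM in early growth, 16.5 and 15.5 TPM in late growth, and 19.2 and 20.2 TPM in resting, with both growth phases apart and resting just above late growth. Its fall in late growth against early growth was 1.24 on the log2 scale and stood in every alternative fit.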
